A study of Mus musculus with 14 samples.

Results

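The Notch ligand genes Dll1, Dll3, Dll4, Jag1 and Jag2 and the Notch target repressor genes Hes1, Hes5, Hey1, Hey2 and Heyl were followed through every ChIP peak list of mouse embryonic stem cells. These 10 genes were chosen by name from the 21779 protein-coding genes of the RefSeq table of GRCm38.p6, and all 10 were found in it. A peak was counted for a gene where it overlapped the gene's span, extended by 5 kb on each side, by at least 1 bp. RNF2 (RING1B) is the ubiquitin ligase subunit of Polycomb repressive complex 1, which places a ubiquitin on histone H2A, and BAP1 is the deubiquitinase that takes it off.

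The cells were C57BL/6 embryonic stem cells whose embryo age the labels give as 3.5 to 4.5 days, and every group had been kept for 4 days in 100 nM 4-OHT (4-hydroxytamoxifen) with the caspase inhibitor emricasan at 10 µM. For RNF2, ChIP libraries came from wild-type cells (2), from BAP1 knockout cells (2) and, as the antibody control, from RNF2 knockout cells (1). For BAP1 there was 1 library of BAP1-C91A cells and, as its control, 1 of BAP1 knockout cells, and each ChIP library had its own input. In the C91A protein the catalytic cysteine is replaced. The protocols write these cells as Bap1C91A/- and give them an extra crosslinking step of 30 min in 2 mM disuccinimidyl glutarate, so the antibody, the genotype and this step cannot be told apart for the C91A list. The sources used here do not say how the knockout alleles were made or whether replicates came from separate cultures. Peak lists hold no expression, so the cell type was taken from the labels.

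Notch receptors are cleaved when a Delta or Jagged ligand on a neighbouring cell binds them, and the freed intracellular domain joins the DNA-binding protein RBPJ to switch on target genes. The best known targets, the Hes and Hey genes, encode basic helix-loop-helix repressors that in turn hold down lineage factors such as the proneural genes. In embryonic stem cells Notch signalling is known for its part in neural commitment, and Polycomb complexes are known for occupying silent developmental genes with CpG-rich promoters.

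The lists differed in depth and calling. The first wild-type RNF2 library had 58.4 M tags and 4038 peaks, the first BAP1 knockout one 54.1 M and 7946. The second libraries had 149 and 139 M tags and 28770 and 39872 peaks in the same order, with a later MACS2 version and a shorter fragment length. The RNF2 knockout list (119 M tags) held 0 peaks, so every RNF2 peak given here has a control value of no peak. This control was called with the MACS2 version and fragment length of the second libraries, so the first libraries have no control called as they were. BAP1 ChIP gave 2395 peaks in C91A cells (415 M tags) and 144 in BAP1 knockout cells (32.5 M tags). Because depth and caller changed together with the replicate number, genotypes are compared within each number, and fold enrichments (the authors' ratio of ChIP over local background at a peak) are used only to describe or rank peaks inside a list.

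Promoter sequences of RefSeq (GRCm38.p6), 250 bases before to 50 bases after a start, matched 7 of the 10 genes: the 5 ligands, with 2 starts for Dll1, and Hes5 and Hey2. Hes1, Hey1 and Heyl had no entry. The 5 below are shown because they bear on how the peaks fall: Hes5, Hey2 and Dll4 lay under an RNF2 peak in all 4 wild-type and BAP1 knockout lists, whereas Jag1 and Dll3 did not in the first wild-type list. Capitals mark TGGGAA, the core of the RBPJ site, and CACGCG, a site of Hes-type repressors, on either strand; the Dll3 promoter holds neither.
Hes5, chr4:154960673-154960972, plus strand: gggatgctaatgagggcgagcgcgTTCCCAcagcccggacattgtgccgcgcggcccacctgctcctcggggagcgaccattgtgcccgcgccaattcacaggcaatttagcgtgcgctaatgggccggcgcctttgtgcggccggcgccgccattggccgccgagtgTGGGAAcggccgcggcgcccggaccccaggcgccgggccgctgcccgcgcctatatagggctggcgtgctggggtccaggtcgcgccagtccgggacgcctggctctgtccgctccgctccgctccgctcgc
Hey2, chr10:30842734-30843033, minus strand: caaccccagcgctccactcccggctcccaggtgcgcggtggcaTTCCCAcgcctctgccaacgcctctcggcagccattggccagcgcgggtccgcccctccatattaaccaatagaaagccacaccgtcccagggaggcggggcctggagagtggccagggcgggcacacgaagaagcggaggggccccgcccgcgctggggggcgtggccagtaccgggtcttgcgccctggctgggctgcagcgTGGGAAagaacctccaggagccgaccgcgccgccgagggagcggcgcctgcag
Dll4, chr2:119325534-119325833, plus strand: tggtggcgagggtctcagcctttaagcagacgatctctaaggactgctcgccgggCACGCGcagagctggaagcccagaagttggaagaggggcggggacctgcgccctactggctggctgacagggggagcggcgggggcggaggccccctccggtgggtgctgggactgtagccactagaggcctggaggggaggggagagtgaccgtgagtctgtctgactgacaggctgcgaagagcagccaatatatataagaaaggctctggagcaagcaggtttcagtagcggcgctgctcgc
Jag1, chr2:137116471-137116770, minus strand: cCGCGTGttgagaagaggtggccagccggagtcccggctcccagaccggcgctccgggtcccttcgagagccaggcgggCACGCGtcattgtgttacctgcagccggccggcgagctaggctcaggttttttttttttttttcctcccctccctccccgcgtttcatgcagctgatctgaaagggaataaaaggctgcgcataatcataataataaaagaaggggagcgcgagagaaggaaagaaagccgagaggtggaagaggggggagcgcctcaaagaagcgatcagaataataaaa
Dll3, chr7:28301736-28302035, minus strand: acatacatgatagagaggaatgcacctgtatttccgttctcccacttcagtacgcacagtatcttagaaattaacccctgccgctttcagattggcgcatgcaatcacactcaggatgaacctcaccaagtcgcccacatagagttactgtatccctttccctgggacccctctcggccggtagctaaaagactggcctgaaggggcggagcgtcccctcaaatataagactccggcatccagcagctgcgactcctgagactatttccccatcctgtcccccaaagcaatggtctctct

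Both repressor promoters held TGGGAA at 2 places and none of the 6 ligand promoters did. In Hes5 the matches began 226 and 82 bases before the start, and in Hey2 207 and 3 bases before it, in each gene once on either strand. Over all 32851 promoters, 25.6% held TGGGAA. The motif CACGCG was found in the ligand promoters of Dll4, Jag1 (2 matches), Jag2 and the upstream start of Dll1, and in 9.27% of all promoters. This motif itself contains CpG, and every member promoter held more CpG than the median promoter. No share over promoters alike in CpG was computed, so the 9.27% does not show an excess. The N-box CACNAG (42.5% of all) occurred in Dll4 and the upstream Dll1 promoter, the E-box CACGTG (7.15% of all) in none, and no match of 1 motif overlapped a match of another. These matches describe letters, not binding.

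The member promoters held a median of 23 CpG, from 11 in Dll3 to 63 in Jag2, against a median of 7 over all promoters and of 23 over those under a peak of the first wild-type list. RNF2 peaks lay over 5 of the 8 member promoters in the first wild-type list (6.61% of all promoters), 7 in the first BAP1 knockout list (14.2%), 8 in the second wild-type list (30.2%) and 8 in the second BAP1 knockout list (38.2%). BAP1 peaks lay over 0 of the 8 in C91A cells (1.67%) and 0 in the BAP1 knockout control (0.00609%). The 3 not reached by RNF2 in the first wild-type list were those of Dll3, Jag1 and Jag2. Jag2, the promoter richest in CpG, was also not reached in the first BAP1 knockout list.

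**Figure D1:**
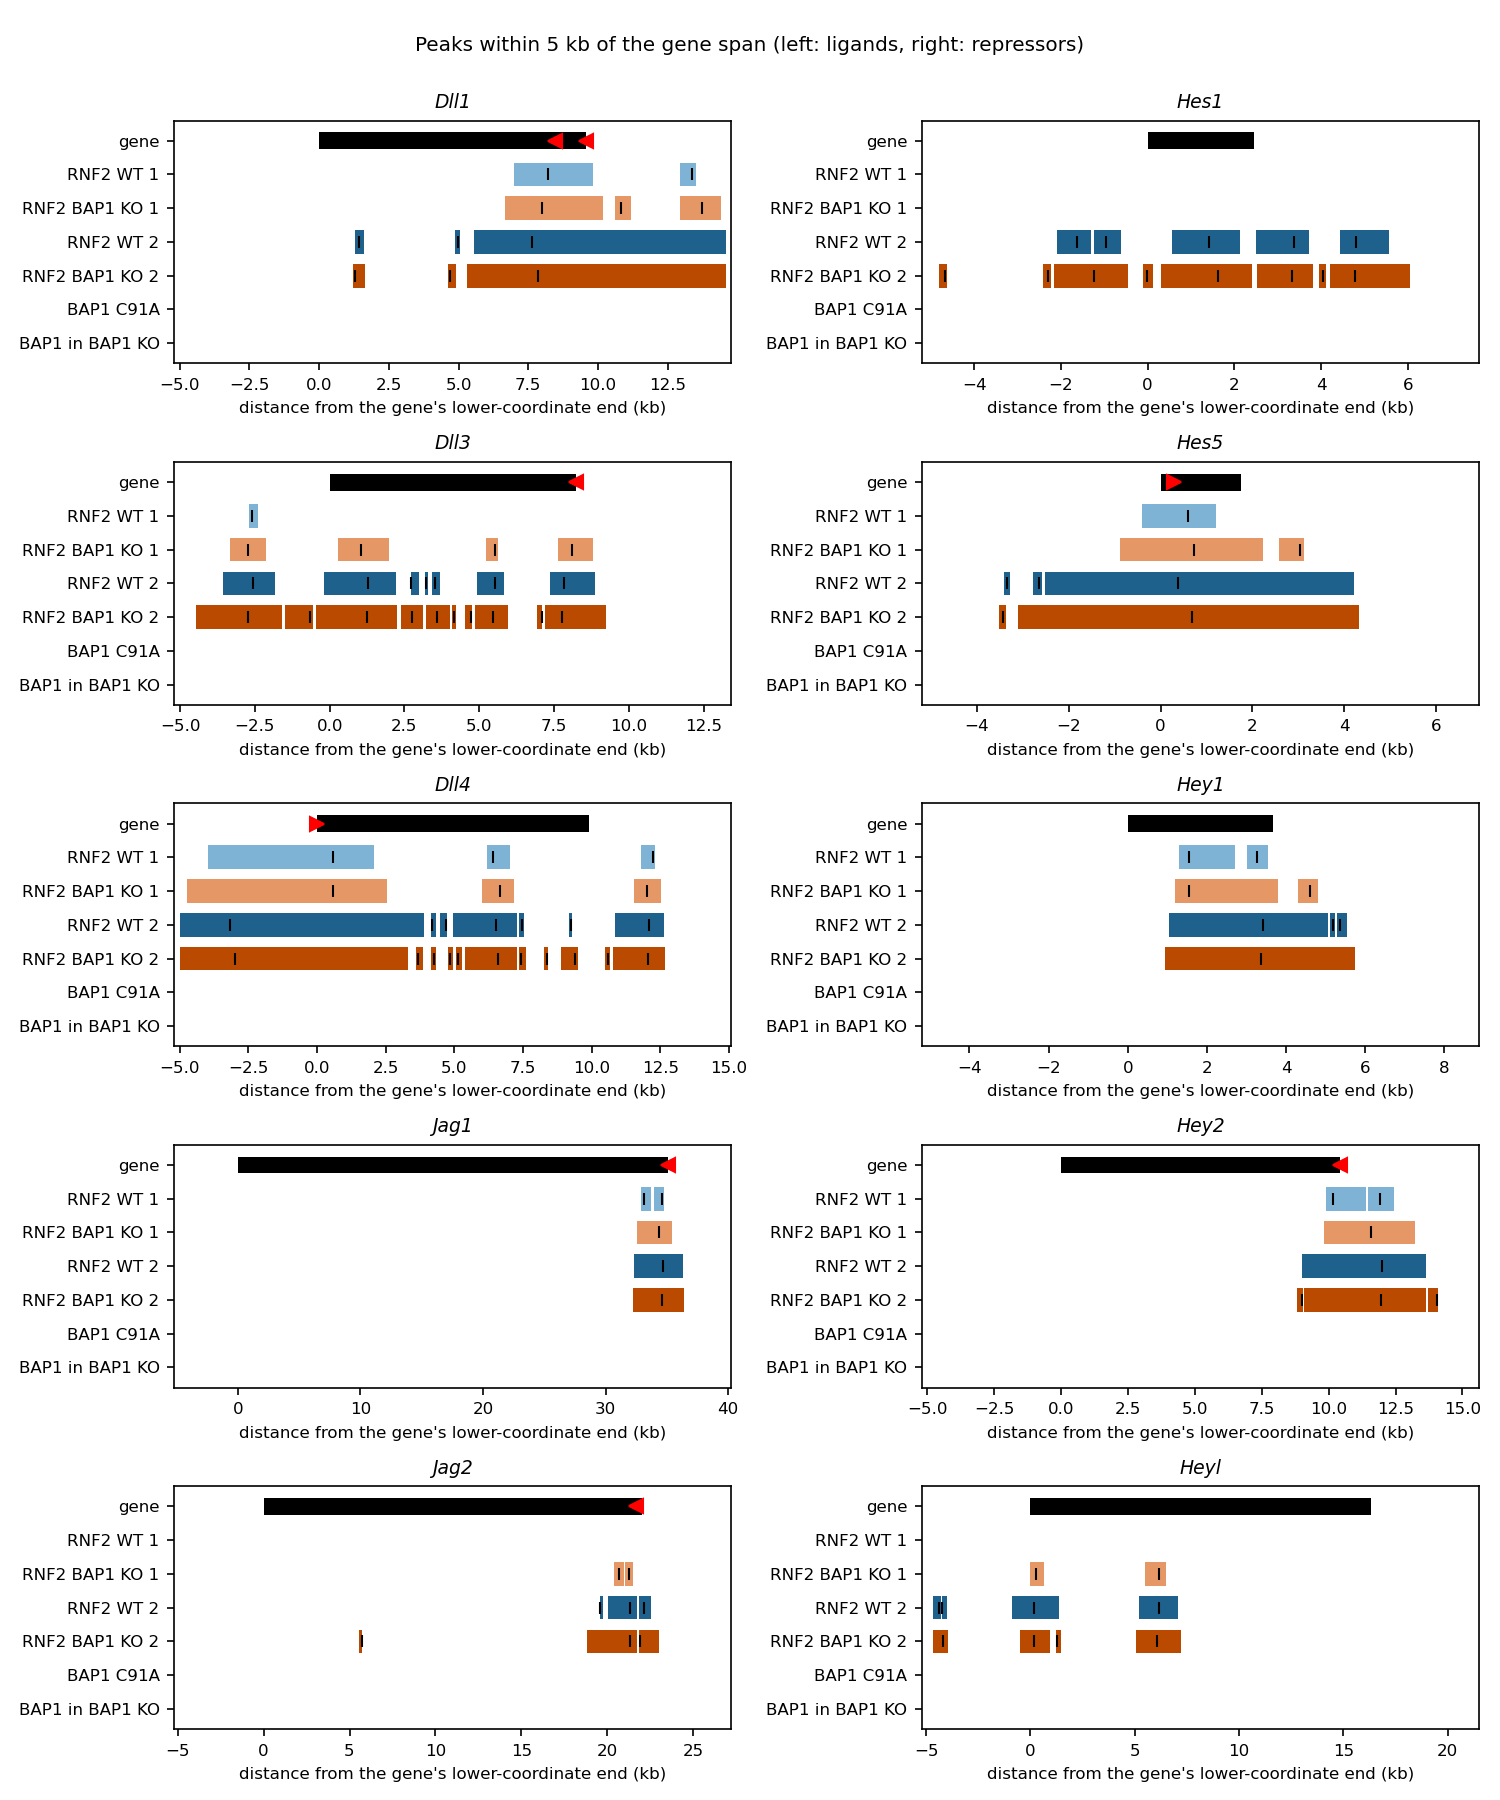
Peaks of each list (coloured bars, clipped to the window; black ticks are summits) around the 10 genes (black bars), by distance in kb from the end of the gene with the lower coordinate; red arrowheads are RefSeq starts, pointing in the direction of transcription, where the promoter table has them. RNF2 peaks sit at the starts of Dll1, Dll4, Jag1, Hes5 and Hey2 and fill most of the Dll4 and Hes5 windows in the second lists, while the 2 BAP1 rows are empty and the RNF2 knockout list, not drawn, held no peak.

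RNF2 occupied 7 of the 10 genes in both wild-type lists, against 14.5% of all protein-coding genes: 4 ligands (Dll1, Dll3, Dll4 and Jag1) and 3 repressors (Hes5, Hey1 and Hey2). All 3163 genes occupied in the first wild-type list were also occupied in the second, so occupancy in both lists equals that in the first alone. Of the 2 wild-type lists, Jag2, Hes1 and Heyl had a peak in the second only. Per list, 7 of 10 were occupied in the first wild-type list (14.5%), 9 in the first BAP1 knockout list (29.6%), and 10 in the second wild-type (58.8%) and second BAP1 knockout lists (66.6%). Where a −log10 q (q being MACS2's adjusted p) of at least 10 was asked of each peak, the genes occupied in both wild-type lists were 4, namely Dll1, Dll4, Hes5 and Hey2, against 8.68% of all genes.

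Dll1, the ligand of somite formation and early neurogenesis, held the highest-ranked peak of the 10 genes in the first BAP1 knockout and the second wild-type list. The gene spans chr17:15367354-15376932 on the minus strand. At its strongest RNF2 peak the fold enrichment was 5.04 and 22.2 in the wild-type lists, first and second, and 20.0 and 15.6 in the BAP1 knockout lists. In the second wild-type list this peak stood at rank 95 of 28770, and the gene at rank 94 of 21779. It stood at 411 of 7946 peaks in the first BAP1 knockout list, and lower in the others, at 1435 of 4038 in the first wild-type and 3014 of 39872 in the second BAP1 knockout list. It covered both promoters in all 4 lists. All 4 summits lay inside the gene, 281 to 853 bases downstream of the nearest start. In the second lists this 1 peak was 9684 bp (wild type) and 9409 bp (BAP1 knockout) wide.

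Dll4, the ligand of blood vessel sprouting, was the most widely covered of the 10 genes in every RNF2 list. It spans chr2:119325784-119335666 on the plus strand, and the start of the gene is overlapped by the long non-coding RNA gene Gm14207. RNF2 peaks covered 7.43 and 13.7 kb of its window in the wild-type lists and 9.46 and 14.1 kb in the BAP1 knockout lists. The 4 lists repeated 3 places of binding, at the start, 6417 to 6662 bases into the gene and 2144 to 2334 bases beyond its end. The strongest summit lay 570 and 587 bases downstream of the start in the first lists. In the second lists it lay 3169 and 2970 bases upstream, within Gm14207, under a peak of 9488 and 8721 bp that also covered the Dll4 promoter.

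Dll3, a ligand of somite formation that acts inside the cell rather than on its neighbours, differed from these in where its peaks lay. It spans chr7:28293555-28301785 on the minus strand. In the first wild-type list its only peak was 319 bp wide with a fold enrichment of 3.40, and the summit lay inside the neighbouring selenoprotein gene Selenov. Counting a peak only for the nearest coding gene therefore removes Dll3 and leaves 6 of 10 genes occupied in both wild-type lists (12.7% of all genes). In the other lists the strongest Dll3 peak lay 6949 to 7195 bases downstream of the start, near the far end of the gene. Its fold enrichment was 7.98 (BAP1 knockout, first list), 10.9 (wild type, second) and 20.0 (BAP1 knockout, second). A peak at the Dll3 start was weaker in each, with 3.30, 4.70 and 8.26 in the same order. The number of peaks in the window was 1 and 7 in wild type and 4 and 10 in BAP1 knockout.

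Jag1, the ligand of heart, bile duct and inner ear development, is the longest gene of the group (35.1 kb, chr2:137081451-137116520, minus strand), and RNF2 was found only around its start. The strongest summit lay 384 to 668 bases downstream of the start in all 4 lists. Its fold enrichment was 4.25 and 15.7 in wild type and 5.39 and 16.0 in BAP1 knockout. In the first wild-type list 2 narrow peaks of 763 and 779 bp stood where the others held 1 peak of 2838 to 4164 bp.

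Jag2, the ligand of limb and palate development (chr12:112907803-112929812, minus strand), had no peak in the first wild-type list. The strongest Jag2 peak reached 4.77 (BAP1 knockout, first list), 8.07 (wild type, second) and 10.5 (BAP1 knockout, second) in fold enrichment. The strongest summit lay 373 to 1031 bases downstream of the start. In the second lists 2.56 kb (wild type) and 4.28 kb (BAP1 knockout) of its window were covered, and at 23.4% Jag2 stood lowest among the ligands by rank over all genes in the second BAP1 knockout list.

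Among the repressors, Hes5, a target that keeps neural progenitors from differentiating, held the widest of the strongest peaks in both second lists and in the first wild-type list, while Hey2 did in the first BAP1 knockout list. The gene is 1.75 kb long (chr4:154960626-154962372, plus strand), and its peak was 1617 bp wide in the first and 6729 bp in the second wild-type list, and 3131 and 7432 bp in the BAP1 knockout lists. Fold enrichments were 3.80 and 19.1 in wild type and 16.9 and 15.9 in BAP1 knockout. The summit lay 79 to 439 bases downstream of the start in all 4 lists. In the second lists the peak ran past both ends of the gene, and in the second wild-type list Hes5 stood at 3.20% of all genes by rank.

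Hes1, the target with oscillating expression in many progenitors (chr16:30065357-30067796), was the only member with no peak in either first list. In the second lists its window held 5 separate peaks in wild type and 8 in BAP1 knockout, covering 5.34 and 7.74 kb. The strongest lay inside the gene and had a fold enrichment of 5.57 and 9.50, the lowest of the 10 genes in both lists. Hes1 stood at 23.8% and 25.4% of all genes by rank. Its binding was thus spread over several peaks, low beside the strongest peaks of the other members, where Hes5 had 1 high one. The strongest Hes1 peaks still lay above the medians over all genes with a peak, 4.56 and 6.81 in the same order.

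Hey1 and Hey2, repressors of heart and vessel development, were occupied in all 4 lists. Hey1 (chr3:8663359-8667038) held fold enrichments of 3.13 and 14.8 in wild type and 7.12 and 13.5 in BAP1 knockout, with every strongest summit inside the gene. In the first lists that summit lay 1546 and 1548 bases from the lower-coordinate end, and in the second lists 3426 and 3366 bases from it, so that the strongest point differed by 1.88 kb between lists. Part of the Hey1 window belongs to the predicted coding gene LOC115489673.

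Hey2 (chr10:30832359-30842783, minus strand) had its strongest summit upstream of the start in all 4 lists, at 1499 and 1580 bases in wild type and 1155 and 1538 bases in BAP1 knockout. The fold enrichment there was 5.17 and 14.8 in wild type and 14.4 and 19.9 in BAP1 knockout. In the first wild-type list a second peak, of 4.21, stood 247 bases downstream of the start. Each of the other lists held 1 wide peak of 3400 to 4622 bp over both places.

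Heyl, a Hey family member of vascular smooth muscle (chr4:123233556-123249870), had no peak in the first wild-type list and the same pair of sites in the other 3. The first site lay 150 to 248 bases inside the lower-coordinate end, and the second 6066 to 6183 bases inside it. The second was the stronger in each, reaching 3.72 (BAP1 knockout, first list), 14.1 (wild type, second) and 19.6 (BAP1 knockout, second) in fold enrichment. Over these 3 lists its strongest summits fell within 117 bp of each other, the smallest such spread among the 10 genes.

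**Figure D2:**
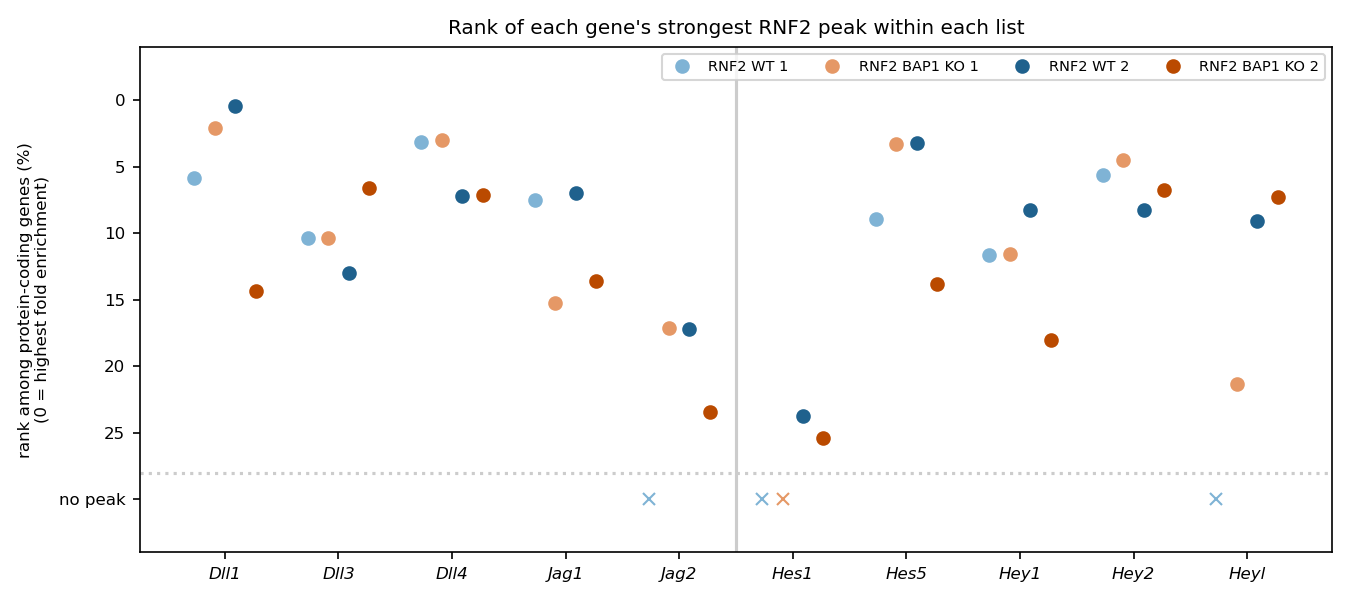
Rank of each gene's strongest RNF2 peak among all protein-coding genes, in percent (0 is the highest fold enrichment; the axis runs downward), per list, with crosses for no peak. Dll1 stood at 0.432% in the second wild-type list, and Jag2 and Hes1 stand lowest among those with a peak in the second lists.

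Compared by role, ligands and repressors overlapped in every RNF2 measure. Occupied genes were 4 of 5 ligands and 3 of 5 repressors in the first wild-type list, 5 and 4 in the first BAP1 knockout list, and 5 and 5 in both second lists. Over the occupied genes, the strongest peak had a median fold enrichment of 4.65 for ligands and 3.80 for repressors in the first wild-type list, and of 7.98 and 10.8 in the first BAP1 knockout list. It was 15.5 for ligands (8.07 to 22.2) and 14.8 for repressors (5.57 to 19.1) in the second wild-type list. In the second BAP1 knockout list the medians were 16.0 and 15.9. Over all genes with a peak, the medians were 4.34 and 5.60 in the first lists and 4.56 and 6.81 in the second.

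Median covered length was larger for the ligands in 3 of the 4 lists. The windows of Jag1 and Jag2 are longer than that of any repressor. Yet in the second lists these genes had the shortest covered lengths of all members (3.995 and 2.56 kb in wild type, 4.16 and 4.28 kb in BAP1 knockout). In the first wild-type list the median was 1.54 kb for ligands and 1.62 kb for repressors, and in the first BAP1 knockout list 4.52 and 3.10 kb. The median was 7.16 kb (2.56 to 13.7) for ligands and 4.67 kb (4.38 to 7.06) for repressors in the second wild-type list, and 10.0 kb (4.16 to 14.1) and 5.18 kb (4.62 to 7.74) in the second BAP1 knockout list. As a share of the window, the medians in the second wild-type list were 39.3% for ligands and 32.0% for repressors. In the first wild-type list the order was the other way, with 3.42% for ligands and 12.1% for repressors. In both BAP1 knockout lists the ligands were higher, with 24.8% against 16.6% in the first and 51.0% against 35.1% in the second. Among ligands the share in the second wild-type list ran from 8.0% in Jag2 to 68.9% in Dll4, and among repressors from 17.7% in Heyl to 60.1% in Hes5. No test was made between the classes, since genes are not replicates of a condition.

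The comparison of BAP1 knockout with wild-type cells addresses where RNF2 sits in cells without BAP1. Across all 4 lists 0 of the 10 genes were gained (a peak in both BAP1 knockout lists and in no wild-type list; 0.11% of all genes) and 0 were lost (the mirror case; 0%). Within the first pair Jag2 and Heyl held a peak in BAP1 knockout and not in wild type, 2 of 10 against 15.5% of all genes, and 0 of 10 were lost (0.372%). Within the second pair, where wild type already held all 10, 0 were gained (9%) and 0 lost (1.28%). The counts of 0 gained over 4 lists and in the second pair follow from the second wild-type list, which left no member to gain. In the first pair only 3 members lacked a wild-type peak, and 2 of these gained one, against 18.1% of the 18616 genes lacking it. These members, Jag2, Hes1 and Heyl, were all reached by RNF2 in the deeper wild-type library. The 18616 genes also include those without RNF2 in either wild-type library, and few of these gained it (24 over the 4 lists). The 18.1% is thus too low a background for the 3 members. A share among genes reached only in the deeper wild-type library was not computed. With the RNF2 lists at an equal length of 4038 peaks, Jag2 was the 1 member gained in the first pair (5.26% of all genes), it was lost in the second pair (2.9%), and Jag2 and Heyl were no longer occupied in both BAP1 knockout lists. Without the second wild-type library the gained count over the remaining lists was 2, again Jag2 and Heyl.

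RNF2 covered more of the window in BAP1 knockout than in wild type in both pairs for 8 members: the 5 ligands, Hes5, Hey1 and Hey2. In the first pair this held for 9 of the 9 members with a peak, against 95.8% of all genes with a peak in that pair, and a smaller length for 0 (3.92%). In the second it held for 9 of 10, against 86.4%, and Heyl was the 1 with a smaller length (13.3%). Over both pairs it was 8 of 9, against 82.3% of genes with a peak in each pair. These shares of the members lie near the background. At −log10 q of at least 5 the count was again 8 of 9 (82.1% of genes with a peak in each pair), with Heyl in place of Dll4. At −log10 q of at least 10 it was 7 of 9 (80.1%), with Heyl and without Dll4 and Hey2. When only 1 kb around each gene end was read, the count fell to 3 of 9 (Dll3, Jag2 and Hey1), against 70% of genes with a peak in each pair under that setting. There Dll1, Jag1, Hes5 and Hey2 had equal lengths in both libraries of the second pair, and Dll4 in those of the first. In the other pair each was longer in BAP1 knockout. In the tied pair of Dll1, Jag1, Hey2 and Dll4 the length was 2001 bp, all of 1 gene end. Their other end held no peak in either library of that pair. In Hes5 both ends were covered throughout (3747 bp). An end already covered throughout cannot widen, but whether this lowered the count was not tested. Heyl was shorter in BAP1 knockout in the second pair (1461 against 1872 bp). At equal list length the count was 5 of 8 (Dll1, Dll3, Jag1, Hes5 and Hey1), against 62.2%.

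Dll3 had the widest difference of the 10 genes. In wild type 0.319 and 7.16 kb of its window lay under RNF2 peaks (3.74 ± 4.84 kb, mean ± SD, n = 2) and 4.52 and 11.8 kb in BAP1 knockout (8.15 ± 5.13 kb, n = 2). BAP1 knockout was higher by 4.20 kb in the first pair and 4.61 kb in the second. A two-sided exact permutation test over the 4 libraries gave p = 0.667, and 2 libraries against 2 cannot give less than 0.333.

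Hes1 came next in the second pair, higher by 2.40 kb in BAP1 knockout with no peak in either first library, followed by Jag2, higher by 1.72 kb in the second pair and 1.01 kb in the first. Dll1 was higher by 2.13 and 0.454 kb, Dll4 by 2.03 and 0.373 kb, Hes5 by 2.06 and 0.532 kb, and Jag1 by 1.30 and 0.169 kb. Hey1 (1.17 and 0.424 kb) and Hey2 (0.927 and 0.554 kb) moved by similar amounts. Heyl was higher by 1.66 kb in the first pair and differed by -0.042 kb (BAP1 knockout minus wild type) in the second. In each gene the first and second wild-type libraries differed more than the genotypes did within the second pair. For none of the 10 genes did the 2 BAP1 knockout libraries both lie above or both below the 2 wild-type libraries, which was so, upward, for 5.45% of genes with an RNF2 peak and, downward, for 0%. The exact permutation p was 0.667 for 8 members and 1.000 for Hes1 and Heyl. This test pools the 4 libraries without regard to their number, so its p contains the gap between first and second libraries, and the differences within each number stand without a test.

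**Figure D3:**
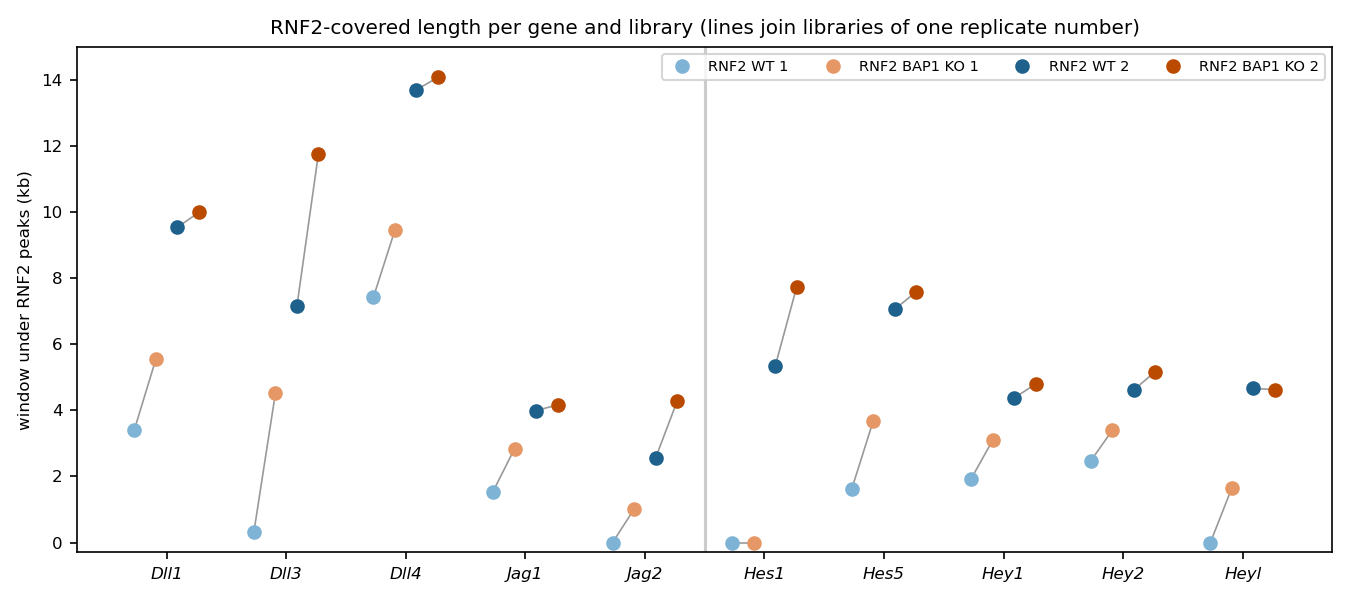
RNF2-covered length of the window in kb, 1 point per library, with lines joining wild type and BAP1 knockout of the same replicate number. Within a number the BAP1 knockout point lies above wild type, save for Hes1 in the first pair (both 0) and Heyl in the second (4.67 and 4.62 kb), and every second library lies above both first ones.

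BAP1 had no peak at any of the 10 genes. In C91A cells 0 of 5 ligand and 0 of 5 repressor windows held one, against 5.08% of all genes, and in the BAP1 knockout control 0 of 10 did, against 0.156%. With so low a background, 0 of 10 lies near the share of all genes. Among the 3082 genes with RNF2 in all 4 lists, to which 7 of the members belong, 17.1% held BAP1. The share was 16.8% among genes with RNF2 in the first wild-type list and 7.54% among those in the second. Windows of 10 kb on each side of the gene still held 0 (5.81% of all genes).

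The nearest BAP1 peaks of C91A cells lay far outside the windows and near other genes. The closest was 37.0 kb from Dll3, beside the transcription elongation gene Supt5, with a fold enrichment of 3.25. For Jag2 it was 70.6 kb away, inside Brf1, a factor of RNA polymerase III, with 4.21. For the other 8 genes the distance was at least 257 kb, the value of Hey1, and it reached 7482 kb at Hey2. BAP1 was mapped in C91A cells only, so whether wild-type BAP1 lies at these genes was not measured.

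The rest of the Notch pathway was read from a list of 48 further genes, of which 14 (29.2%) held RNF2 in both wild-type lists (14.5% of all genes), 23 in both BAP1 knockout lists (29.6%), and 0 were gained or lost across the 4 lists. Within the first pair 9 of the 48 were gained (15.5% of all genes) and 0 lost (0.372%), and within the second 3 were gained (9%) and 0 lost (1.28%). The other Hes-related repressors had the largest share occupied among the 6 classes of the list, 5 of 7 in both wild-type lists. They were led in the first wild-type list by Bhlhe41, a circadian repressor, with a fold enrichment of 7.85, Helt, a repressor of midbrain neuron fate, with 7.14, and Hes7, the somite clock repressor, with 3.84.

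Of the receptors, Notch1 to Notch4, 0 of 4 held RNF2 in the first wild-type list (14.5% of all genes). With 4 genes, a count of 0 lies near that share. In the second wild-type list 4 of 4 held it (58.8% of all genes), with fold enrichments between 3.32 and 6.87. Of 14 genes for receptor glycosylation and cleavage, 1 was occupied in both wild-type lists, against 14.5% of all genes. This was Lfng, the Fringe enzyme of the somite clock (4.28 and 12.6). The γ-secretase subunit gene Ncstn had no peak in either, and Adam17, a receptor-cleaving protease gene, none in any list. Among 8 nuclear effectors 3 were occupied in both: the coactivator genes Maml3 (12.1 and 14.4) and Maml2 (3.97 and 13.2), and Rbpjl (4.61 and 16.4), a relative of RBPJ. Rbpj itself had a peak in the second lists only, of 3.23 in wild type and 3.08 in BAP1 knockout.

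Of ligand endocytosis genes and non-canonical ligands, 3 of 7 were occupied in both wild-type lists, against 14.5% of all genes. They were Dlk1, a non-canonical ligand and imprinted gene (7.13 and 19.7), Dlk2 (4.11 and 14.0) and Neurl1b (3.48 and 15.2). Among modulators 2 of 8 were so occupied, against the same share, Dtx4 (4.19 and 18.0) and Dtx1 (4.14 and 16.3), which encode Deltex ubiquitin ligases. BAP1 in C91A cells lay at 2 of the 48 genes, Notch1 (fold enrichment 2.93) and Helt (3.18), a share of the list close to the 5.08% of all genes.

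**Figure D4:**
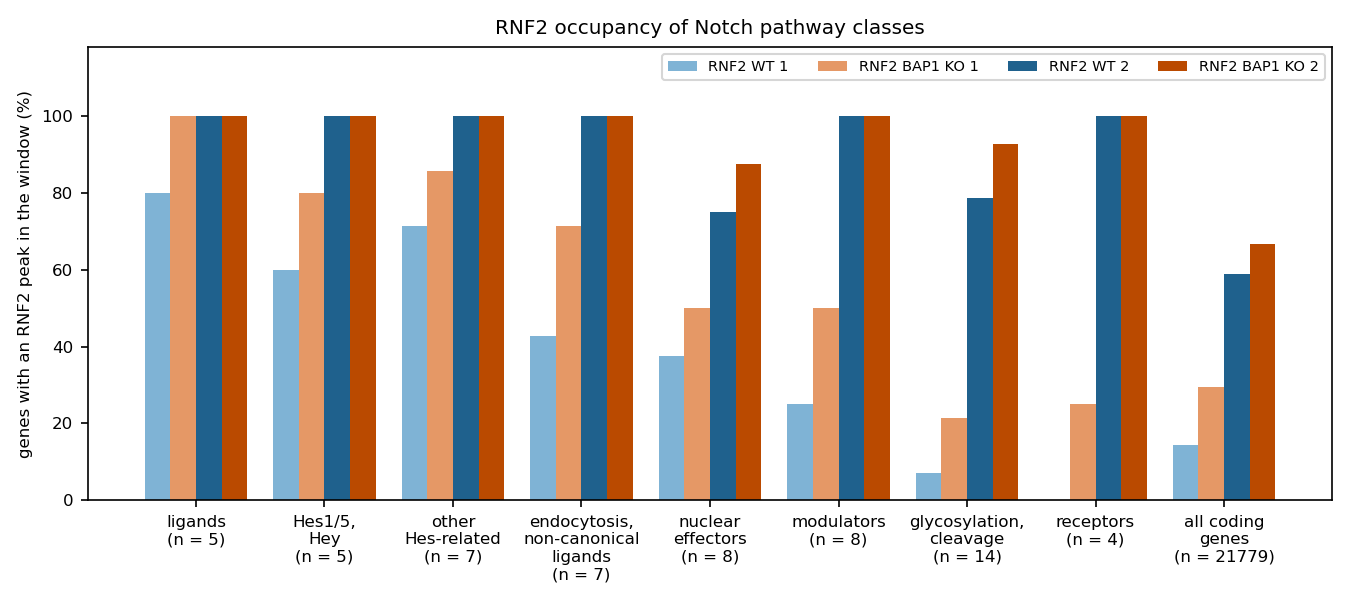
Percent of genes with an RNF2 peak in the window, per list, for 8 classes of Notch pathway genes and for all 21779 protein-coding genes. In the first wild-type list the ligands reach 80%, the other Hes-related genes 71.4% and the Hes1, Hes5 and Hey genes 60%, the receptors are at 0, and all coding genes at 14.5%.

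To name the genes most like each class, every protein-coding gene was given its percent rank by strongest peak in 5 lists (the 4 RNF2 lists and BAP1 in C91A cells, with 0 for no peak), and the distance to the class median was taken. Closest to the ligands were Rorb, a nuclear receptor gene (distance 0.862 percentage points), Epha3, an ephrin receptor gene (1.55), and the agouti gene a (1.58). Closest to the repressors were Lamp5 (1.2), Slc7a10, an amino acid transporter gene (1.42), and Tada1 (1.76). On this scale a higher value is a stronger peak, the reverse of the ranks given above. The ligand median ranks were 92.5 and 92.8 in the wild-type and 89.6 and 86.4 in the BAP1 knockout lists, and those of the repressors 88.4, 91.7, 88.4 and 86.2 in the same order.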

How the data were processed

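The 7 deposited ChIP peak lists were analysed. Per the submitters' processing notes, GSNAP was the aligner (its version is not stated in them) and GRCm38, also called mm10, the build. Peaks were called with MACS2 for each library against its own input at a q-value cutoff of 0.05, with version 2.1.0.20150420 or 2.1.1.20160309, per the file headers. Per the file headers the authors' columns give each peak's pileup signal, the −log10 of a p-value and of a q-value, and a ratio, the fold enrichment. Pileup was not used.

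Only peaks of the main chromosomes entered (1 to 19, X, Y), and 108 coding gene entries lying within the first 3 Mb (Y aside) were dropped. Overlap, covered length and ranks were computed with Python 3.11.15 and pandas 2.3.3, and the code was tested on simulated peaks. "Called" means a peak in the window; no test across genes was made. The members and gene lists were chosen with earlier results of these data known. Pathway genes named are, per class, the 3 with the highest fold enrichment in the first wild-type list and any with BAP1; Rbpj, Ncstn and Adam17 were added after their values were seen. Alternatives were other windows, stricter q-values, summit position, equal list lengths, nearest-gene assignment (added after seeing the data) and leaving out each RNF2 library. P-values measure only the spread between these libraries, which may be technical.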

Additional observations from a re-analysis of the deposited data

How the results depend on the processing

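Windows of 1 or 10 kb around the span, the summit in the window and −log10 q of at least 5 kept the counts of member genes occupied in both wild-type lists, in both BAP1 knockout lists and by BAP1 within 1.5 times of those reported. With −log10 q of at least 10, 4 genes, 2 of them ligands, were occupied in both wild-type lists. Over all genes, the 24 gained became 42 with nearest-gene assignment, 105 and 185 at −log10 q of at least 5 and 10, and 392 with RNF2 lists of equal length, the 0 lost became 132 at equal length, and the 1106 with BAP1 in C91A cells became 336 and 23 at these q. The 8 members wider in BAP1 knockout became 3 with 1 kb around either gene end and 5 with RNF2 lists of equal length. The drop to 3 came from ties in 1 pair for Dll1, Dll4, Jag1, Hes5 and Hey2. Leaving out 1 RNF2 library gave 7 to 10 genes occupied in wild type (4 to 5 ligands, 3 to 5 repressors), 9 to 10 in BAP1 knockout, 0 to 2 gained, 0 lost and 9 wider; the 5 repressors were reached without the first wild-type library, the 2 gained without the second. With the replicate number as a block, 2 genes were gained inside the first number and 0 inside the second; 2 pairs cannot show whether the numbers pair the libraries. The median rank of the members' strongest peaks, 46.3% and 6.20% of the first and second wild-type list by fold enrichment, was 44% and 7.24% by −log10 q. No BAP1 rank could be given, since no member held a BAP1 peak. Of 120 values per gene and list, 38 moved by more than the spread between libraries with 1 kb around either gene end, 14 with a 1 kb window and 4 with a 10 kb window. That spread holds the gap between first and second libraries and is wide: at 1 kb around either gene end, Dll3 had no peak in the first wild-type list and the highest fold enrichment of Heyl in the second BAP1 knockout list was 11.0 in place of 19.6, both within it. The BAP1 and RNF2 knockout lists have no replicate, and the depth of the first libraries limits what their absent peaks can show.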
